A study of Homo sapiens with 6 samples.

Results

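SH-SY5Y is a human neuroblastoma cell line that is widely used as a model of neurons. The cells received either siControl or siPSF, an siRNA against the RNA-binding protein PSF, both at 10 nM for 72 h, and RNA was sequenced from 3 libraries per group. The genes described here are long intergenic noncoding RNA genes that carry a LINC number. Of the 386 lncRNA genes in the table whose symbol is LINC followed by digits, 155 had a mean of at least 1 CPM (counts scaled by the library's total count) over the 3 siControl libraries, and these 155 are the members. The table holds 21301 genes in all, each with at least 1 count in every library. A single siRNA against PSF and a single cell line stand behind every value, and the study states that the 3 libraries of a group were biological replicates.

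Long noncoding RNAs are transcripts without a long open reading frame. A LINC number is given to a gene that does not overlap a protein-coding gene when it is named, and most such genes have no known function. Many are spliced and polyadenylated like mRNAs, and many start beside a protein-coding gene and are transcribed away from it. PSF, encoded by SFPQ, is a nuclear protein that binds RNA and DNA and acts in splicing and transcription. It is also a core protein of paraspeckles, nuclear bodies built on the long noncoding RNA NEAT1.

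To give the sequence context of the members described first, the promoter windows of 5 of them are printed, from 250 bases before the annotated start to 50 bases after it. They are 3 of the head-to-head members compared with their neighbours below (LINC00271, LINC01521 and LINC02593), a member of 231 kb with one of the greatest losses (LINC01250) and the member with the smallest p (LINC00476). The sequences are those of RefSeq for GRCh38.p14, read 5′ to 3′ on the strand of the gene. Capitals mark a match, on either strand, to a motif. The motifs searched were TATAAA, which is found in basal promoters, the MYC and MYCN recognition sequence CACGTG, and the GATA family sequence AGATAA.
LINC00271, chr6:135497551-135497850, plus strand: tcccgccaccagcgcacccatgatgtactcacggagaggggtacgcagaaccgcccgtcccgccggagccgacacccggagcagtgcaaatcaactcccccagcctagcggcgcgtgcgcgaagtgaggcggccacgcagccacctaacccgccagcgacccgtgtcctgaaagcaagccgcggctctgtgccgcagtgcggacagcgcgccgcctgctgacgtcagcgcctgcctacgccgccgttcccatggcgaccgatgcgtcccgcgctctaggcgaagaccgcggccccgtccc
LINC01521, chr22:31346509-31346808, plus strand: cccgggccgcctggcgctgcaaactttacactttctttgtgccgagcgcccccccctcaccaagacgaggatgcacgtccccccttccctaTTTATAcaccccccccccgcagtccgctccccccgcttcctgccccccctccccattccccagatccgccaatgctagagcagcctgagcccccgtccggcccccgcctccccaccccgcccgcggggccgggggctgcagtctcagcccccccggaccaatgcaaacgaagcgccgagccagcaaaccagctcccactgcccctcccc
LINC02593, chr1:919643-919942, minus strand: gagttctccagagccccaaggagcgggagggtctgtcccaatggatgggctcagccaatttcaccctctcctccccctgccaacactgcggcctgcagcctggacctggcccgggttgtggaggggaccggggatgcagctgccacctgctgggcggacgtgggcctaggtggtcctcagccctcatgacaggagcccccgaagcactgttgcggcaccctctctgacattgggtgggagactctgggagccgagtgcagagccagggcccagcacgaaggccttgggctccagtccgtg
LINC01250, chr2:3125977-3126276, minus strand: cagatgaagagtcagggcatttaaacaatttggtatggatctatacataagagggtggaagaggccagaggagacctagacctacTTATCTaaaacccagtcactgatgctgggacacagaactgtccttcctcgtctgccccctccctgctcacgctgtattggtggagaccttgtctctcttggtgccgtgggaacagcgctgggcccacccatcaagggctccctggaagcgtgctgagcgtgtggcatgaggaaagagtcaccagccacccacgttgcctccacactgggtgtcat
LINC00476, chr9:95875928-95876227, minus strand: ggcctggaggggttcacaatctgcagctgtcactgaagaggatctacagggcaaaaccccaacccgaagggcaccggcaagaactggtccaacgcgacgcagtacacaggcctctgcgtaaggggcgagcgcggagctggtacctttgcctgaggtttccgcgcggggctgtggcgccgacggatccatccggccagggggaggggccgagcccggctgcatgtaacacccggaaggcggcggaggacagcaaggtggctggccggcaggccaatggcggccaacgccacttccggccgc

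Windows were found for 110 of the 155 members. CACGTG was present in 10 of these windows (9.09%), against 7.44% of the 27305 promoters in the RefSeq table. TATAAA was present in 11.8% of the members' windows and 11.95% of all, and AGATAA in 10.0% and 10.5%. Members called lower with a window numbered 21, of which 1 held TATAAA, 1 held CACGTG and 2 held AGATAA. The median GC content was 61.8% in the members' windows and 58.3% over all promoters. These shares are descriptions of letters in a window and say nothing of binding.

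The libraries held between 101540520 and 132420931 counts, so that 1 CPM stood for more than 100 counts, and the lowest count of any member in any library was 26. SFPQ had 356 to 402 CPM in siControl and 165 to 209 CPM in siPSF (edgeR adjusted p = 9.5e-05). Of 8.0 noradrenergic neuroblastoma markers, all were in the table, 1 was called higher (GATA3) and 2 lower (DBH and TH), with summed levels of 4815 to 5396 CPM in siControl and 4263 to 5300 CPM in siPSF. TH, which makes the precursor of noradrenaline, was near 0, with a mean of 0.741 CPM in siControl against 0.320 CPM in siPSF. Of 6 mesenchymal markers, 5 were in the table and 1 was lower (FN1), with sums of 150 to 152 CPM and 113 to 152 CPM. Of 5 markers of other cell types, COL1A1 and EPCAM were in the table, with sums of 3.62 to 4.82 CPM in siControl and 6.34 to 8.07 CPM in siPSF, and EPCAM was called higher. The part of these markers in the results below was not tested, and in bulk RNA fewer cells of a type cannot be told apart from less of an RNA per cell.

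All 155 members passed the filter on low counts and were tested among 19694 genes. At an edgeR adjusted p under 0.05, 37 members (23.9%) were lower and 9 (5.81%) were higher in siPSF than in siControl. Over all genes tested, 8.27% were lower and 6.65% were higher. Both directions together made 46 members (29.7%) and 14.9% of all genes. Of the 1105 other lncRNA genes at 1 CPM or more in siControl, 14.6% were lower and 6.06% higher, and of the protein-coding genes at that level 9.22% and 6.9%. Because the members were chosen by their siControl level, which is one side of this contrast, nothing is read from the balance of the 2 directions. When the limit was set on the siPSF libraries instead, 147 genes were chosen, of which 26 were lower and 14 higher. The other lncRNA genes and the protein-coding genes were not counted with that limit.

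The 3 siPSF libraries did not overlap the 3 siControl libraries in 76 members (49.0%), against 34.4% of all genes. A called fall of more than 2-fold was found in 11 members (7.1%, against 2.3% of all genes) and a called rise of more than 2-fold in 2 (1.29%, against 1.23%). All genes here include genes under 1 CPM, and these shares were not counted for other genes at 1 CPM or more. As the members' limit is on siControl, nothing is read from the differences. The median log2 fold change of the members was -0.12 (quartiles -0.43 and 0.14), with 100 of 155 below 0, while the median over all genes was 0.01 and that of the other lncRNA genes -0.09. Against the siControl mean, the median member stood at -0.12, -0.09 and -0.15 on the log2 scale in siPSF replicates 1, 2 and 3. With the limit on the siPSF libraries the median was -0.04.

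**Figure D1:**
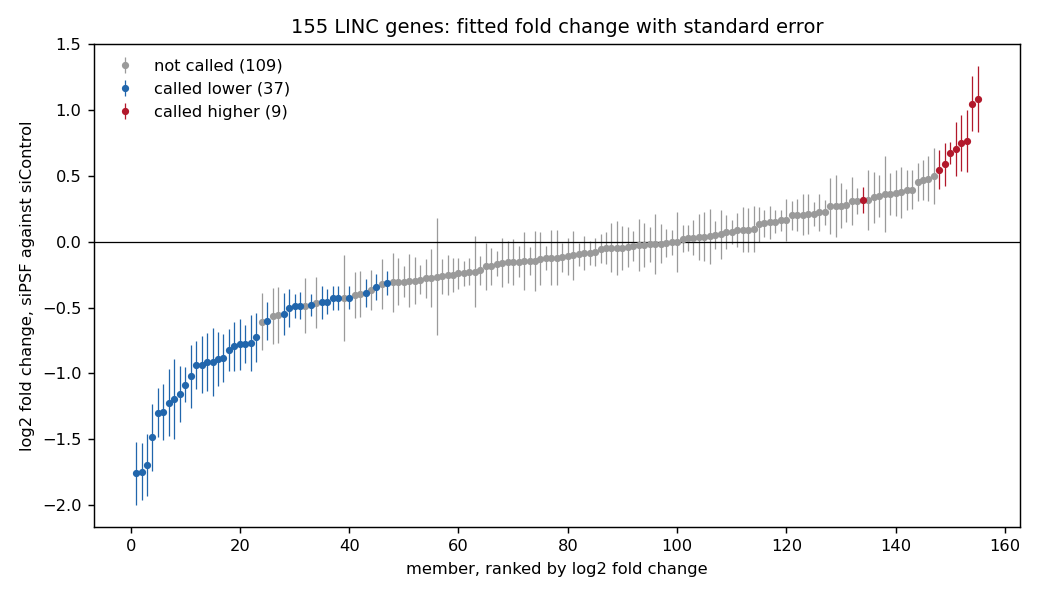
Fitted log2 fold change (siPSF against siControl, vertical axis) of each of the 155 members, ranked on the horizontal axis, with bars for the standard error. The 37 members called lower are blue, reach -1.76 and fill most of the left end, the 9 called higher are red and reach 1.08, and 109 members were not called.

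Leaving out single libraries gave fewer lower members in all 6 fits, and fewer higher members in 5 of them, while without siPSF replicate 3 the higher members numbered 10. Without siControl replicate 3, 23 members were lower and 2 higher. The number of higher members was 4 without siControl replicate 2, 3 without siPSF replicate 1 and 4 without siPSF replicate 2. In all 6 fits that left out 1 library, 21 of the 37 lower members and 2 of the 9 higher members (LINC01963 and LINC01772) were called. The split also moved with the scale, since limma on FPKM values rescaled to one sum per library called 47 members lower and 3 higher. That scaling moved the median of all genes to -0.16 and made 88.0% of all called genes lower, against 55.4% in the count fit, and the members' median became -0.24.

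The member with the smallest p was LINC00476 (gene ID 100128782, chr9:95806088-95875977), whose present RefSeq name is ERCC6L2-AS1. It was measured at 22.1, 23.1 and 24.3 CPM in siControl and at 12.2, 11.9 and 8.57 CPM in siPSF. Every siPSF library lay at least 9 CPM under the lowest siControl library, with siPSF replicate 3 the lowest. Its mean of 23.2 ± 1.10 CPM became 10.9 ± 2.03 CPM (SD, n = 3 in each group), which is -1.09 on the log2 scale (SE 0.13, edgeR adjusted p = 3.4e-04). ERCC6L2, a helicase-like gene of DNA repair that overlaps it on the opposite strand, stood at 26.9 CPM before and 26.8 CPM after knockdown (-0.01, SE 0.10). Whether strand was used in counting is not stated, so reads of the shared stretch cannot be assigned to one of the genes. In the deposited FPKM the fall of LINC00476 was smaller, at -0.52 on the log2 scale, and its FPKM per CPM was 0.64 higher in siPSF on that scale.

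LINC01250 (gene ID 101927554, chr2:2895048-3126026, minus strand) spans 231 kb. Its level was 7.88, 7.56 and 8.51 CPM in siControl and 2.81, 2.89 and 1.43 CPM in siPSF. The groups were far apart, and siPSF held 29.9% of the siControl level (log2 fold change -1.74, SE 0.22, edgeR adjusted p = 3.7e-04). LINC01252 (chr12:11548030-11564403) had 1.09, 1.07 and 1.07 CPM in siControl and 0.328, 0.360 and 0.264 CPM in siPSF, the most negative fitted value among the members (-1.76, SE 0.24, edgeR adjusted p = 5.9e-04). It lay close to the limit of 1 CPM. ETV6, a transcriptional repressor gene 85.3 kb away and the nearest protein-coding gene, had -0.26 (adjusted p = 0.091).

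LINC01930 and LINC01776 lie on chromosome 1 on the same side of DPYD, a very long gene that encodes the first enzyme of pyrimidine breakdown. LINC01930 (chr1:97933474-97941740) was at 2.04, 1.41 and 1.52 CPM in siControl and at 0.606, 0.455 and 0.467 CPM in siPSF. Its groups did not overlap, and the log2 fold change was -1.69 (SE 0.23, edgeR adjusted p = 6.6e-04). LINC01776 fell from a mean of 1.77 CPM to 0.938 CPM (-0.91, SE 0.26, edgeR adjusted p = 0.034) but was not called without siControl replicate 2 (adjusted p = 0.079), siControl replicate 3 (0.15) or siPSF replicate 3 (0.054). DPYD itself fell from 22.2, 22.2 and 24.6 CPM to 12.8, 11.8 and 10.99 CPM (-0.96, SE 0.10, edgeR adjusted p = 1.7e-04). LINC01930 lies 12.4 kb and LINC01776 290 kb from DPYD, and both pairs share this 1 neighbour.

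On chromosome 2, LINC01102 and LINC01238 fell. LINC01102 (chr2:104434347-104512757), whose nearest protein-coding gene is the neural transcription factor gene POU3F3 at 341 kb, had 3.81, 4.44 and 4.64 CPM in siControl and 1.73, 2.03 and 0.832 CPM in siPSF (-1.49, SE 0.26, edgeR adjusted p = 0.0026). siPSF replicate 3 was the lowest library again, and the groups did not overlap. POU3F3 had a log2 fold change of -0.06 (adjusted p = 0.93). LINC01238 (chr2:241970683-241977276) had 4.67, 7.18 and 7.25 CPM in siControl, where replicate 1 stood below the other replicates, and 2.38, 2.96 and 2.43 CPM in siPSF (-1.30, SE 0.19, edgeR adjusted p = 8.3e-04). On chromosome 19, LINC01801 dropped from 2.34 ± 0.332 CPM to 0.957 ± 0.217 CPM (SD, n = 3 per group), which left it under 1 CPM (-1.29, edgeR adjusted p = 0.0019).

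Of the members called lower, LINC01000 (gene ID 402483, chr7:128641241-128660998) had the highest CPM. Its libraries were at 124, 125 and 135 CPM in siControl and at 89.9, 99.0 and 86.9 CPM in siPSF. The highest siPSF library lay well below the lowest siControl library, and 71.7% of the level was left (-0.48, SE 0.08, edgeR adjusted p = 0.0028). LINC00641 (chr14:21200079-21206900) starts 2.25 kb downstream of HNRNPC, a gene of an abundant nuclear RNA-binding protein. It was at 65.9, 68.6 and 74.6 CPM and then at 52.3, 51.6 and 45.5 CPM (-0.49, SE 0.09, edgeR adjusted p = 0.0043), while HNRNPC had -0.03 (SE 0.08).

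LINC02666, for which no RefSeq position was found, went down from 4.55 ± 0.705 CPM to 2.04 ± 0.596 CPM (SD, n = 3 per group; -1.16, edgeR adjusted p = 0.0039). LINC01686 (chr1:182615140-182616629) was at 3.07, 3.42 and 2.96 CPM and at 1.82, 1.88 and 1.65 CPM (-0.82, SE 0.16, edgeR adjusted p = 0.0047). LINC01145 in the segmental duplications of chromosome 1 was at 11.2, 12.5 and 11.8 CPM and at 7.58, 7.72 and 5.40 CPM (-0.78, SE 0.14, edgeR adjusted p = 0.0039). The transcripts of LINC02591 and LINC00623 match LINC01145 over nearly their whole length, so these 3 members can share reads, and the value of each is uncertain. LINC02591 was called lower (-0.77, edgeR adjusted p = 0.029) but, with 1 library left out, only without siPSF replicate 2 (0.052 to 0.082 otherwise), and LINC00623 was not (-0.56, adjusted p = 0.098).

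The 9 members called higher were fewer and mostly at the edge of the threshold. LINC01963 (gene ID 150967, chr2:216216889-216220192) stood apart from them. It was measured at 34.8, 37.9 and 38.8 CPM in siControl and at 60.0, 59.5 and 58.4 CPM in siPSF. The siPSF libraries lay within 2 CPM of each other and all above the highest siControl library by more than 19 CPM. The mean rose from 37.2 ± 2.099 CPM to 59.3 ± 0.812 CPM (SD, n = 3 per group), to 160% of the siControl level (log2 fold change 0.68, SE 0.09, edgeR adjusted p = 3.9e-04). XRCC5, the DNA end-binding Ku80 gene 10.6 kb away, had a value of 0.07 (edgeR adjusted p = 0.60).

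LINC01772 (chr1:16460948-16468481), which starts 0.87 kb downstream of NECAP2, was at 1.16, 0.929 and 1.32 CPM in siControl and at 1.95, 2.83 and 2.27 CPM in siPSF (1.05, SE 0.21, edgeR adjusted p = 0.0058). The groups did not overlap. LINC00304, downstream of ACSF3, was at 0.871, 1.86 and 1.39 CPM and at 2.98, 3.41 and 2.35 CPM (1.08, SE 0.25, edgeR adjusted p = 0.013), and was not called without siControl replicate 3 (adjusted p = 0.066). LINC02846 had 0.75 (edgeR adjusted p = 0.032), LINC01341 0.71 (edgeR adjusted p = 0.039) and LINC00839 0.32 (edgeR adjusted p = 0.048). With 1 library left out, LINC02846 was called only without siControl replicate 1 or siPSF replicate 3 (adjusted p of 0.087 to 0.13 otherwise), LINC01341 only without siControl replicate 2 or siPSF replicate 3 (0.083 to 0.14 otherwise) and LINC00839 only without siControl replicate 1 (0.074 to 0.20 otherwise). LINC00839 was at 23.2, 19.8 and 20.3 CPM and at 26.1, 25.7 and 26.9 CPM.

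For LINC02691 and LINC02609 the call of a rise holds for counts and not for FPKM. LINC02691 (chr14:104223584-104288069) was at 19.0, 18.7 and 19.3 CPM in siControl and at 32.1, 30.9 and 20.2 CPM in siPSF, where replicate 3 was close to siControl (0.55, SE 0.15, edgeR adjusted p = 0.028). Its deposited FPKM was 11.6, 10.8 and 12.2 in siControl and 10.7, 10.2 and 6.76 in siPSF, so that limma on log2(FPKM + 0.5) gave -0.33 (adjusted p = 0.16). The FPKM obtained per CPM was 0.79 lower in siPSF on the log2 scale. On counts, LINC02691 was called only without siPSF replicate 3 when 1 library was left out, and LINC02609 only without siPSF replicate 2. LINC02609 was called higher on counts (0.77, edgeR adjusted p = 0.046) with overlapping groups, and limma on FPKM gave 0.02 (adjusted p = 0.93). FPKM per CPM moved by more than 0.5 on the log2 scale in 3 of all 155 members (1.94%), LINC02691, LINC02609 and LINC00476. Among the 13115 genes whose lowest count was 200 or more, it did so in 0.206%. The members were taken without that limit, with counts down to 26, so these shares are not for like levels.

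**Figure D2:**
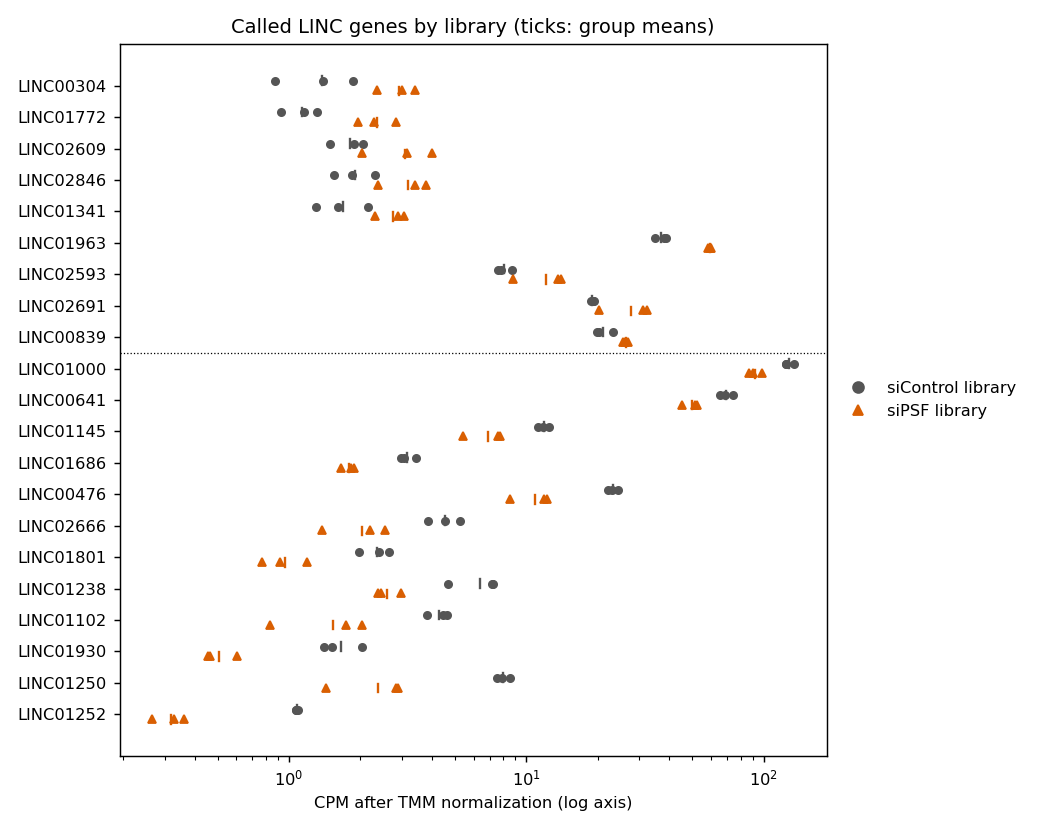
CPM after TMM normalization (horizontal log axis) in each library for the 12 members called lower with the smallest p and the 9 called higher, which lie above the dotted line. Grey circles are siControl libraries, orange triangles siPSF libraries and short ticks group means, and LINC02609 is the member whose groups overlap.

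Levels of different genes were compared in FPKM, which is per kilobase of transcript. The members' siControl means ran from 0.192 to 26.1 FPKM with a median of 1.70, and 17 of the 155 reached 10 FPKM. LINC00665 had the highest mean, at 26.1 ± 2.35 FPKM (SD, n = 3), followed by LINC01184 at 20.0 ± 0.469 FPKM and LINC00467 at 15.8 ± 1.63 FPKM. LINC02210 (15.3 ± 0.988 FPKM), LINC00682 (15.03 ± 0.795 FPKM), LINC01833 (14.6 ± 0.733 FPKM), LINC02381 (14.4 ± 0.699 FPKM) and LINC00221 (14.1 ± 1.22 FPKM) lay within their SD of the next in the order. LINC00641 (12.9 ± 1.23 FPKM) and LINC00339 (11.9 ± 0.190 FPKM) closed the 10 highest. By CPM, the 10 members with the most counts held 37.4% of the members' sum, which was 1685 to 1729 CPM in siControl and 1540 to 1621 CPM in siPSF.

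Of the 10 members with the highest FPKM in siControl, 4 were called lower and 0 higher by edgeR. At an edgeR unadjusted p under 0.05, 2 were higher, and DESeq2's Wald test called 1, LINC02381. LINC00665 fell from 35.6, 37.8 and 30.7 CPM to 27.0, 28.4 and 24.0 CPM (-0.39, SE 0.11, edgeR adjusted p = 0.029), was called in 2 of 6 fits without a library (adjusted p up to 0.13, without siControl replicate 2) and has 82.2% of a transcript in near-identical copy with LINC01535. LINC01184 fell from 36.2, 36.3 and 34.5 CPM to 27.8, 26.3 and 23.9 CPM (-0.46, SE 0.09, edgeR adjusted p = 0.007) with a larger difference in FPKM, of -0.90 by limma (adjusted p = 7e-04), by which it went from rank 2 to rank 10 among the members. LINC00467 fell from 14.6, 12.2 and 11.9 CPM to 10.5, 8.48 and 9.16 CPM (-0.46, SE 0.13, edgeR adjusted p = 0.029), and was called in 2 of the 6 fits without a library (adjusted p up to 0.10, without siControl replicate 1). LINC02381, beside the HOXC cluster, went from 22.9, 21.7 and 20.0 CPM to 26.1, 28.7 and 25.4 CPM without overlap, and missed the threshold (0.31, SE 0.10, edgeR adjusted p = 0.053).

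The other 5 of these had log2 fold changes between -0.10 and 0.22, with edgeR adjusted p-values of 0.15 to 0.79. LINC01833, which starts 2.50 kb from the start of the forebrain and eye transcription factor gene SIX3 and points away from it, was at 29.8, 27.2 and 28.7 CPM and at 27.4, 27.7 and 25.8 CPM (-0.09, SE 0.09). The level of LINC00682 on chromosome 4 was 24.7, 22.5 and 21.9 CPM in siControl and 20.9, 20.5 and 25.1 CPM in siPSF, so that its groups overlapped (-0.05, SE 0.11).

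The standard error of a fold change was smaller at higher levels. Of the 49 members under 2 CPM in siControl, 10 were lower and 5 higher, with a median standard error of 0.21 on the log2 scale. The 57 members from 2 CPM to under 10 CPM gave 14 lower and 1 higher with a median standard error of 0.16. The 49 members at 10 CPM or more gave 13 lower and 3 higher with a median standard error of 0.10. The median fold change was -0.12, -0.15 and -0.12 in these classes. Over all genes tested, 8.27% were lower and 6.65% higher. Other genes were not counted by level class, so nothing about the members is read from these counts.

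**Figure D3:**
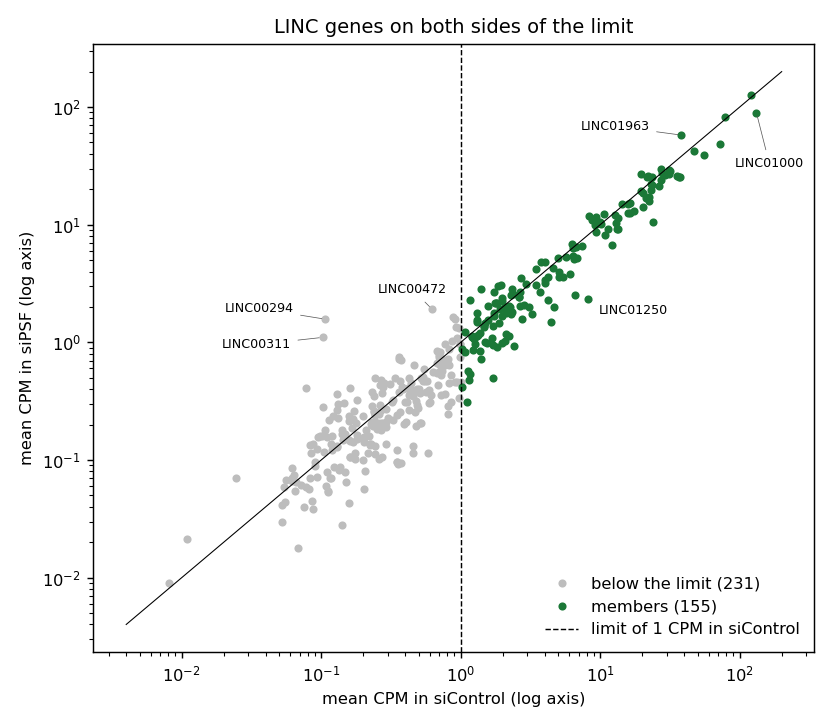
Mean CPM in siControl (horizontal log axis) and in siPSF (vertical log axis) of the 386 LINC genes, with the limit of 1 CPM dashed and equal levels as a solid line. The 155 members are green, and of the 231 genes below the limit (grey) 9 reached 1 CPM in siPSF.

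The limit of 1 CPM cut through a continuous range of levels. Just inside it were LINC02606 at 1.02 CPM, LINC01399 at 1.03 CPM and LINC00431 at 1.07 CPM of the unadjusted library totals, and just outside were LINC02615 at 0.999 CPM, LINC01948 at 0.993 CPM and LINC02731 at 0.993 CPM. In siPSF, 17 members lay under 1 CPM. Of the 231 LINC genes below the limit, 209 were tested, 20 were lower and 11 higher. Over all genes tested, 8.27% were lower and 6.65% higher, and nothing is read from the difference. Among the genes below the limit, LINC00472 went from 0.534, 0.532 and 0.746 CPM to 1.57, 1.86 and 2.48 CPM (1.70, SE 0.24, edgeR adjusted p = 7.8e-04). LINC02021 went from a mean of 0.860 CPM to 1.69 CPM (0.97, edgeR adjusted p = 0.028). LINC00294 was at 0.148, 0.0525 and 0.111 CPM in siControl and at 0.345, 2.25 and 2.28 CPM in siPSF, so its replicates differed more than 6-fold (3.96, SE 0.63, edgeR adjusted p = 0.0016).

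RefSeq positions were found for 153 members and their spans ran from 0.971 kb to 384 kb with a median of 12.2 kb. The 72 members under 10 kb had a median log2 fold change of -0.01, with 9 lower (12.5%) and 6 higher (8.33%). The 65 members from 10 kb to under 100 kb had a median of -0.24, with 19 lower (29.2%) and 3 higher (4.62%). The 16 members of 100 kb or more had a median of -0.44, with 8 lower (50.0%) and 0 higher by edgeR, by DESeq2 or at an unadjusted p under 0.05 of either. Among the other lncRNA genes, also limited to 1 CPM or more in siControl, 8.62% were lower under 10 kb, 15.4% from 10 kb to under 100 kb and 33.3% of 90 genes at 100 kb or more, where the median was -0.40. Under the same limit, 3.04%, 5.55% and 27.0% of the protein-coding genes were lower in these classes, with a median of -0.17 in the 2454 genes of 100 kb or more. The members' share of lower genes was the higher one in each span class, and no test of the difference was made. As the limit is on siControl, nothing is read from the direction. The span classes were not counted with the limit on siPSF.

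The 8 long members that fell were LINC01250, LINC00271, LINC01399, LINC01515, LINC00673, LINC01572, LINC01184 and LINC01006. LINC01515 (chr10:65571425-65766541, 195 kb) was at 1.81, 2.14 and 2.12 CPM in siControl and at 1.11, 1.06 and 0.994 CPM in siPSF (-0.94, SE 0.18, edgeR adjusted p = 0.0049). LINC01006 (chr7:156472099-156640535, 168 kb) fell from 22.0, 22.4 and 21.3 CPM to 16.1, 16.8 and 16.0 CPM (-0.43, SE 0.09, edgeR adjusted p = 0.0096). Its groups were each within 1.1 CPM and did not overlap. LINC01572 (384 kb) fell from a mean of 2.66 CPM to 1.61 CPM (-0.73, edgeR adjusted p = 0.021), and of the fits without 1 library only those without siControl replicate 2 or siPSF replicate 3 called it (0.051 to 0.087 otherwise). The other 8 long members ranged from LINC02820 at -0.61 (adjusted p = 0.080) to LINC00693 at 0.37 (adjusted p = 0.22).

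**Figure D4:**
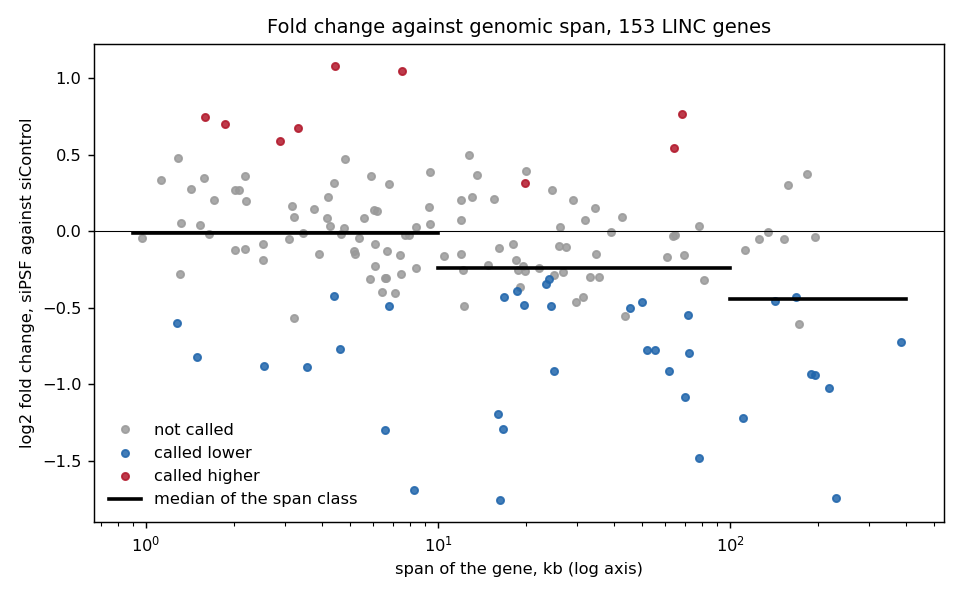
Log2 fold change (siPSF against siControl, vertical axis) against genomic span in kb (horizontal log axis) for the 153 members with a position, coloured by call. Black bars are the medians of the 3 span classes, -0.01, -0.24 and -0.44.

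The surroundings of the members were taken from RefSeq. By its present gene spans, 21 of 153 members overlap a protein-coding gene, and 2 are now themselves listed as protein-coding, LINC00672 as LASP1NB and LINC00634 as SMIM45. Another 8 carry the name of a divergent transcript (DT) of a neighbour. The nearest tested protein-coding gene lay a median of 22.0 kb away, within 50 kb for 99 members and beyond 100 kb for 28. Near-identical copies elsewhere, of at least 98% identity over 50% or more of a transcript, were found for 19 members, of which 5 were called lower (LINC00665, LINC00869, LINC01347, LINC01670 and LINC02591), and their counts are uncertain.

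The 17 head-to-head members start within 5 kb of a neighbour on the opposite strand. Of these, 3 were lower and 1 higher, with a median log2 fold change of -0.15. Over all 155 members 23.9% were lower and 5.81% higher, and over all genes tested 8.27% and 6.65%. LINC00271 (AHI1-DT, chr6:135497801-135716055) starts 61 bases from AHI1, a gene of the primary cilium, and its printed window holds none of the 3 motifs. It fell from 1.01, 1.11 and 1.26 CPM to 0.564, 0.672 and 0.426 CPM (-1.02, SE 0.24, edgeR adjusted p = 0.014), and AHI1 fell from 26.7, 28.7 and 32.7 CPM to 23.0, 20.4 and 16.9 CPM (-0.55, SE 0.12, edgeR adjusted p = 0.012). In both genes siPSF replicate 3 was the lowest library. LINC00271 was not called without siControl replicate 3 (edgeR adjusted p = 0.062).

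LINC01521 starts 413 bases from PATZ1, a zinc finger transcription factor gene. It was at 51.3, 53.0 and 56.8 CPM in siControl and at 40.3, 42.3 and 37.5 CPM in siPSF (-0.42, SE 0.09, edgeR adjusted p = 0.008), while PATZ1 had means of 129 and 128 CPM (0.00, SE 0.08, adjusted p = 0.98). LINC01184 starts 591 bases from SLC12A2, the gene of the sodium, potassium and chloride carrier NKCC1, which had -0.25 (SE 0.12, adjusted p = 0.19). LINC02593 starts 4.23 kb from SAMD11 and was at 8.75, 7.85 and 7.62 CPM in siControl and at 14.0, 13.6 and 8.82 CPM in siPSF, where replicate 3 barely exceeded siControl (0.59, SE 0.16, edgeR adjusted p = 0.030). With 1 library left out, it was called only without siControl replicate 1 or siPSF replicate 3 (adjusted p of 0.081 to 0.12 otherwise). SAMD11 rose from 102, 92.8 and 79.5 CPM to 165, 169 and 116 CPM (0.71, SE 0.14, edgeR adjusted p = 0.0047), also with replicate 3 the lowest of siPSF.

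The 15 members that lie up to 10 kb downstream of a neighbour on its strand gave 3 lower and 3 higher, with a median of 0.15. Over all genes tested, 8.27% were lower and 6.65% higher. The classes by arrangement are small, and no difference between them, from all members or from all genes was tested. LINC02846, 5.15 kb downstream of TMEM250, was at 2.31, 1.84 and 1.54 CPM in siControl and at 3.40, 3.79 and 2.37 CPM in siPSF, and TMEM250 rose from a mean of 46.1 CPM to 74.2 CPM (0.69, SE 0.11, edgeR adjusted p = 0.0018). Whether their reads come from separate transcripts or run on from the neighbour was not tested. The 9 members that overlap the neighbour on the opposite strand gave 2 lower, LINC00476 and LINC01006, and the 6 on the same strand gave 0 calls by edgeR, by DESeq2 or at an unadjusted p under 0.05 of either.

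In the 153 pairs of a member and its nearest protein-coding gene, both genes were called lower in 10 pairs, both higher in 2 and in opposite directions in 2. Only the member was called in 31 pairs, only the neighbour in 16 and neither in 92. Among 1006 pairs of other lncRNA genes at 1 CPM or more, the first 3 numbers were 23, 4 and 7. The lncRNA genes themselves were called lower more often among the members (23.9%) than among the others (14.6%). A link between the genes of a pair was not tested. The 12 pairs with one direction became 5 without siControl replicate 2, 4 without siControl replicate 3 and 7 without siPSF replicate 2. The pairs that fell were LINC01930 and LINC01776 with DPYD, LINC00271 with AHI1, LINC00673 with the zinc transporter gene SLC39A11, LINC01686 with RGS16, LINC00869 with NBPF19, LINC02808 with the neuronal RNA-binding protein gene ELAVL4, LINC01572 with PMFBP1, LINC00174 with TPST1 and LINC01224 with ZNF91.

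LINC00673 (189 kb) lies 53.1 kb from SLC39A11 and fell from 1.43, 1.90 and 2.44 CPM to 0.993, 0.966 and 1.06 CPM (-0.93, SE 0.22, edgeR adjusted p = 0.014), as SLC39A11 fell from 13.1, 11.4 and 13.2 CPM to 7.45, 6.67 and 6.53 CPM (-0.86, SE 0.12, edgeR adjusted p = 6.3e-04). The siControl libraries of LINC00673 were spread over 1 CPM, and those of siPSF over less than 0.1 CPM, and LINC00673 was not called without siControl replicate 2 (adjusted p = 0.053) or 3 (0.068). LINC00665 fell while ZFP14, 2.70 kb away, rose (0.40, edgeR adjusted p = 0.025), and LINC02693 fell (-0.35, edgeR adjusted p = 0.034) while the potassium channel gene KCNJ12 at 108 kb rose from a mean under 1.1 CPM (1.22, edgeR adjusted p = 0.0028). LINC02693 was called in 0 of the 6 edgeR fits without a library.

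**Figure D5:**
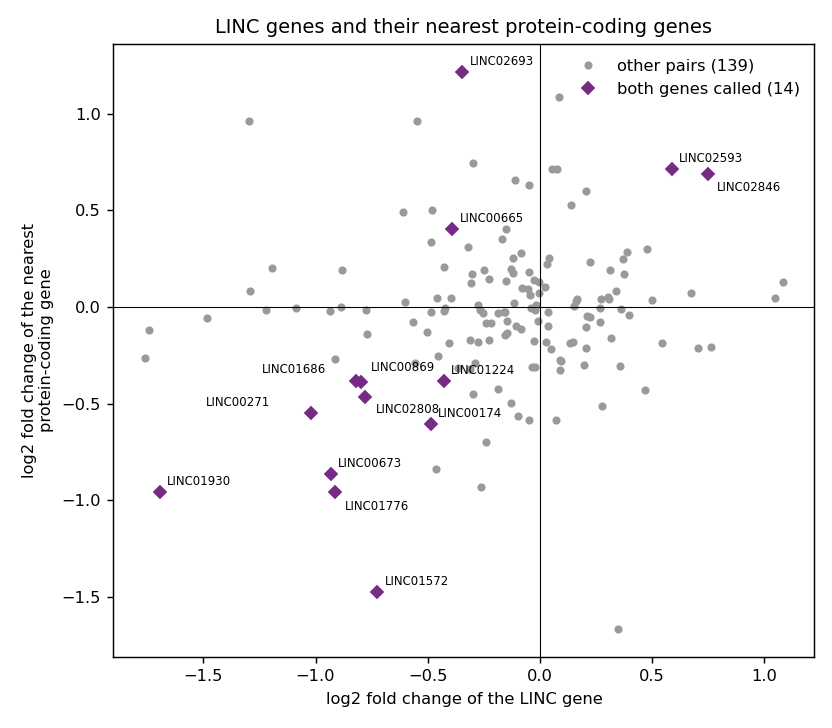
Log2 fold change of each member (horizontal axis) and of its nearest tested protein-coding gene (vertical axis), siPSF against siControl, in 153 pairs. Diamonds are the 14 pairs with both genes called, of which 10 lie in the lower left, 2 in the upper right and 2 in the upper left.

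A list of 20 LINC genes with known ties to neural loci or neuroblastoma was described as a group, and 14 were in the table and 10 were members. Of these 10, 2 were lower (LINC00467 and LINC00665) and 1 was higher (LINC00839). None of these calls held in every fit that left out 1 library. Over all members 23.9% were lower and 5.81% higher, and over all genes tested 8.27% and 6.65%. No difference of the list from these shares was tested. LINC00461, the host of the neural microRNA gene MIR9-2, was at 1.78, 2.29 and 2.43 CPM in siControl and at 2.31, 1.75 and 2.23 CPM in siPSF, with overlapping groups (-0.05, SE 0.19, edgeR adjusted p = 0.90). The mature microRNAs were not measured. Their RefSeq sequences, shown since they are the known product of this member, differ in the seed (bases 2 to 8, in capitals).
hsa-miR-9-5p, chr5:88666902-88666924, minus strand: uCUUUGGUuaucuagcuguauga
hsa-miR-9-3p, chr5:88666866-88666887, minus strand: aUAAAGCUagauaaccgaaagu

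LINC00632, the gene from which the circular RNA CDR1-AS is made, was at 6.30, 6.27 and 7.42 CPM and at 5.86, 6.54 and 3.58 CPM, where siPSF replicate 3 stood below the other libraries (-0.32, SE 0.19, edgeR adjusted p = 0.29). LINC00473 (-0.03, SE 0.11), LINC00662 (-0.01, SE 0.10) and LINC01116 (0.03, SE 0.13) had fitted values near 0 with overlapping groups. Of the listed genes outside the limit, LINC01122 went from a mean of 0.570 CPM to 0.117 CPM (-2.27, SE 0.34, edgeR adjusted p = 0.0011). LINC00472 (1.70, edgeR adjusted p = 7.8e-04) and LINC00294 (3.96, edgeR adjusted p = 0.0016), described above, were called higher. LINC00643 was not called (-0.19, edgeR adjusted p = 0.77).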

How the data were processed

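Poly(A)-selected libraries from 6 SH-SY5Y samples were sequenced by the authors as 50 bp paired-end reads. The authors deposited 1 table that gives each gene a raw read count and an FPKM value in every library. The paper names TopHat, hg38 and RefSeq for these steps, and the submitters' processing notes name Trimmomatic, HISAT2 2.1.0, StringTie 2.1.3b and GRCh38. Which of these pipelines made the table, and whether strand was used in counting, is not given in the sources used here. The library kits named also differ, a TruSeq RNA kit in the paper and a stranded kit in the submitters' notes. Groups and replicate numbers were taken from the sample titles.

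Counts were filtered (filterByExpr), TMM-normalized and fitted with edgeR 4.0.16 (quasi-likelihood test, R 4.3.3), with Benjamini-Hochberg adjustment over 19694 genes and a threshold of 0.05. CPM are TMM-adjusted except at the limit of 1 CPM. Limma 3.58.1 was run on log2(FPKM + 0.5) for genes with a mean of at least 0.5 FPKM, and DESeq2 1.42.0 as an alternative. Data were simulated for this comparison over 19694 genes, of which 200 were changed by 2-fold or 4-fold. Of the 2-fold changes 68.7% were called, of the 4-fold changes 96.9%, and 6.94% of calls were false. In the real data 2938 genes were called, so these shares need not hold there. Replicate libraries differed beyond sampling noise, with a chi-square per degree of freedom of at least 20.8.

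Positions and promoters came from RefSeq GRCh38.p14, strands also from GENCODE, and copies from blastn 2.17.0 on GENCODE transcripts, matched for 146 members. The members, lists and tests were chosen with earlier results of these data known. Named members are the up to 12 called lower and up to 12 called higher with the smallest p, the 10 with the highest FPKM, the 5 with the largest fold change, 3 genes on each side of the limit, the 3 genes below it with the highest siPSF level, their neighbours, a fixed list, and SFPQ. Others were named after their values were seen. Some motifs and a marker that had been listed are not reported here.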

Additional observations from a re-analysis of the deposited data

How the results depend on the processing

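In count fits with the size factors of DESeq2, without the filter, with the Wald test and with a replicate block, 34 to 37 members were lower, and 34 of the 37 lower and 3 of the 9 higher members were called in all 4. All 9 higher members stayed called with the size factors of DESeq2 (9 higher), the Wald test (13) and the replicate block (10). With no filter, 3 were higher. Limma gave 5 higher on log2(FPKM + 0.5) and 3 on rescaled FPKM. The limit of 1 CPM on siPSF gave 14 higher, and a limit of 2 CPM on siControl gave 4. The members' median of -0.12 became -0.24 on rescaled FPKM, -0.038 with the limit on siPSF and -0.083 with the limit on all 6 libraries. Leaving out each library gave 23 to 31 lower and 2 to 10 higher members, and 4 to 12 pairs with one direction. On FPKM, LINC02691 turned to -0.33 and, rescaled, to -0.44, LINC02609 to -0.055 rescaled and LINC00339 to -0.058 rescaled, and LINC00682 ranged from -0.151 to 0.001 over the fits without 1 library. The cause was not tested. Over the named genes and all alternatives, 298 values kept direction and call, 49 lost the call, most of them among the members called higher, and 4 gained it.

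Same-numbered libraries did not deviate together (correlations of -0.022, 0.056 and 0.056, and 2 of 6 libraries correlated best with their own number), so the numbers were not taken as pairs. With the replicate block, 35 members were lower, 10 higher and 11 pairs had one direction, and LINC02381 passed the threshold (edgeR adjusted p = 0.046). SFPQ kept its fall under every alternative run. The median standard error was largest under 2 CPM, at 0.21, and the part of depth in it was not tested.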
